A study of Mus musculus with 6 samples.

Results

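Chemokines are small secreted proteins that set the direction in which leukocytes and other cells migrate, by binding G protein-coupled receptors and the heparan sulfate on vessel walls. Endothelial cells, from which angiosarcomas derive, display them to passing leukocytes. The genes fall into broad groups by how they are switched on. Interferons, acting through STAT and IRF factors, induce Cxcl9, Cxcl10 and Ccl5. Inflammatory signals acting through NF-κB induce Ccl2, Ccl7, Cxcl1 and Cxcl5. Cxcl12 is largely made without a stimulus, and Cx3cl1 and Cxcl16 are made as membrane-anchored proteins that can be cut free. These groups overlap, since NF-κB also acts on Cxcl10 and Ccl5, and both Cx3cl1 and Cxcl16 respond to inflammatory signals.

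The transcripts of these 10 chemokine genes, chosen by name, were examined among the 55401 genes counted in ADC106, a mouse angiosarcoma line. The cells received 12.5 nM of a mimic labelled NC, the control, or of an miR-497 mimic, a synthetic RNA that acts like the mature microRNA, and RNA was taken 3 days later. There were 3 poly(A)-enriched libraries a group, labelled wild type for NC and as overexpressing miR-497 for the other. Both groups were transfected, the data come from a single cell line, and untransfected cells were not analysed here. The series was set up to describe the gene network that responds to miR-497. Transcripts alone were measured, so nothing here speaks of secreted protein.

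Library totals ran from 25777676 to 36159499 counts. Levels are given as CPM, the counts scaled to a common library size. Of 14661 genes with enough counts to test, 49.8% passed an adjusted p of 0.05 (edgeR quasi-likelihood test, Benjamini-Hochberg), 23.8% higher and 26% lower with miR-497, and the median log2 fold change was -0.02. The groups did not overlap for 57.4% of tested genes, with miR-497 above NC for 27.8% and below it for 29.6%. All 10 endothelial markers listed were detected, with summed levels of 9471 to 10169 CPM in NC and 8996 to 9524 CPM in miR-497 libraries. Within that sum the markers went in both directions with miR-497. Cdh5, Tek, Tie1, Erg, Emcn and Vwf were called higher, Pecam1, Flt1 and Eng lower, and Kdr was not called. Of 9 leukocyte markers, 4 were listed at 0 in all 6 libraries, among them Cd3e, Itgam and Tyrobp, although 68.7% of the exon bases of Itgam lie under another gene. The leukocyte sum was 9.53 to 10.7 CPM in NC and 15.8 to 21.1 CPM in miR-497 libraries, most of it from Cd68. Fibroblast and mural markers, 8 genes with Lum at 0, summed to 209 to 219 CPM and 261 to 309 CPM.

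Of the 10 chemokine genes, 6 had enough counts to test. With miR-497, Ccl5 and Cx3cl1 fell, and Cxcl12 and Ccl7 rose. Cxcl1 and Cxcl16 did not pass the test. Cxcl9 and Cxcl5 had few reads and were not tested, and Cxcl10 and Ccl2 were listed at 0 in every library. So 4 of the 6 tested members were called, 2 in each direction, beside 49.8% of all tested genes. The groups did not overlap for the same 4 members, 2 above NC and 2 below it, beside 27.8% and 29.6% of all tested genes. With so many genes called in these libraries, this count does not set the chemokines apart. The median log2 fold change of the tested members was -0.23.

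**Figure D1:**
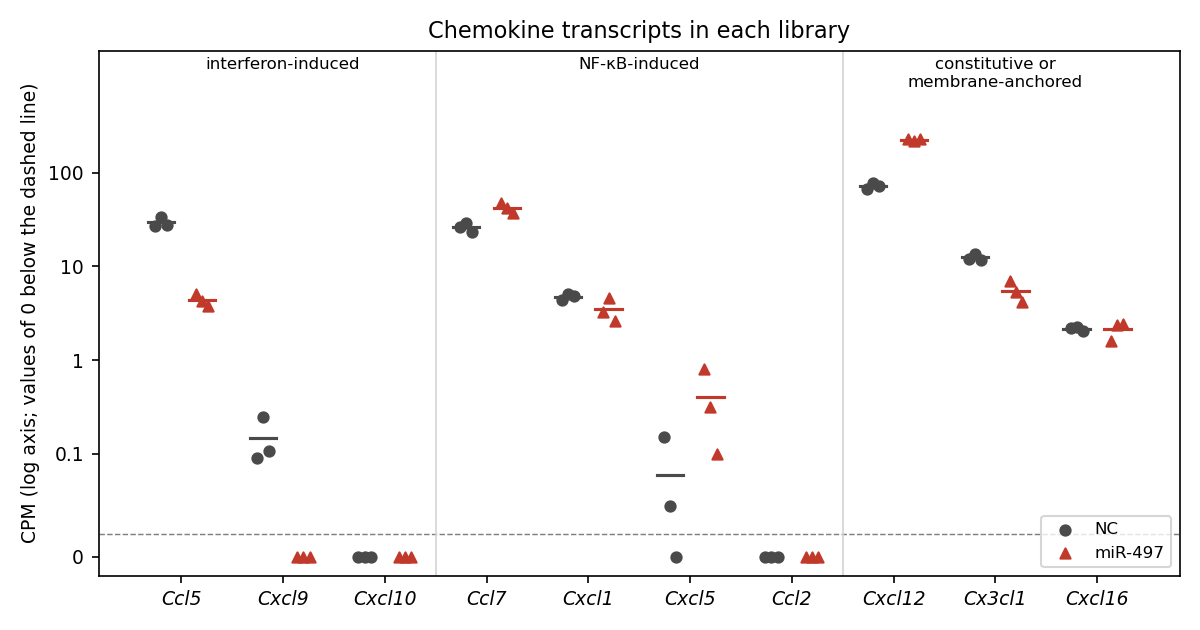
Level of each chemokine transcript in each library, in CPM on a log axis with values of 0 set below the dashed line; circles are NC and triangles miR-497 libraries, and bars are group means (n = 3 each). All 3 miR-497 libraries lie below all NC libraries for Ccl5, Cx3cl1 and Cxcl9, and above them for Ccl7 and Cxcl12. Cxcl10 and Ccl2 are at 0 in all 6.

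Among the interferon-induced chemokines, Ccl5 fell 6.73-fold, and it was the only one of this group that could be tested. Cxcl9 had reads only in NC libraries. Ccl5 (ENSMUSG00000035042; GRCm38 chr11:83525778-83530518, minus strand) draws T cells, monocytes and eosinophils through receptors that include Ccr1 and Ccr3. Its level was 27.2, 33.5 and 27.5 CPM in NC libraries 1 to 3 and 5.05, 4.31 and 3.81 CPM in miR-497 libraries 1 to 3. Every miR-497 library was thus far below every NC library. The means were 29.4 ± 3.54 CPM (SD, n = 3) and 4.39 ± 0.627 CPM (SD, n = 3). The log2 fold change was -2.75 (adjusted p = 3e-11 by edgeR, SE 0.124). Only 77 of the 14661 tested genes had a lower fold change. Ccl5 is also a product of T cells, whose marker Cd3e was listed at 0 in all libraries. A 0 in this table is not proof of absence, and the part of other cells in the Ccl5 result was not tested. In bulk RNA, fewer cells making a transcript and less of it per cell cannot be told apart.

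Cxcl9 (ENSMUSG00000029417; GRCm38 chr5:92321347-92328079, minus strand), a ligand of Cxcr3 on T and natural killer cells, had 3, 9 and 3 reads in NC libraries 1 to 3 and 0 in each miR-497 library. Pooled over the group, NC stood at 0.153 CPM. The limit that 0 reads allow in the pooled miR-497 libraries, 3 counts over the group, was 0.0343 CPM. Set against that limit, the pooled NC level of Cxcl9 was 4.47-fold higher. This bound allows for counting error in the miR-497 libraries only, not in the 15 NC reads. It was 2.85-fold without NC library 2, which held 9 of the 15 reads. It was 2.84-fold without miR-497 library 2 and 2.91-fold without miR-497 library 3, where fewer libraries raise the limit. Too few reads were present for it to enter the edgeR test. With no filter on low counts it had an adjusted p of 0.04.

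Cxcl10 (ENSMUSG00000034855; GRCm38 chr5:92346638-92348889, minus strand), the neighbour of Cxcl9 and a ligand of the same receptor, was listed at 0 in all 6 libraries. Of 76 ribosomal protein genes, which every cell uses, Rpl13, Rpl35 and Rpl35a were also listed at 0 in all 6. A 0 in this table therefore cannot be read as the absence of a transcript, and its cause was not tested. The upstream sequence of Cxcl10 is printed because it holds matches for both pathways. It covers the 250 bases before the start in RefSeq's GRCm38.p6 annotation, chr5:92348890-92349139, minus strand, written 5′ to 3′. Capitals mark an ISRE (interferon-stimulated response element: GAAA, any 2 bases, GAAA) at bases 213 to 204 before the start and κB decamers at bases 159 to 150 and within bases 104 to 94.
Cxcl10: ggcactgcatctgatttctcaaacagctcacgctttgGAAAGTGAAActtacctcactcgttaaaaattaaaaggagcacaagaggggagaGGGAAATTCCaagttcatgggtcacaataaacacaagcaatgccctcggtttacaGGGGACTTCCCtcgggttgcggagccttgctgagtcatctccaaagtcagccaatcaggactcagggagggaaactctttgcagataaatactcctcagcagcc

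On both strands of 32851 RefSeq windows of this length, the ISRE letters occurred in 2.98%. The κB decamer consensus occurred in 7.25% and the interferon-γ-activated site GAS, TTCNNNGAA, in 7.02%. A match is a description of letters and not evidence of binding. RefSeq windows were at hand for Cxcl9, Cxcl10, Cxcl1, Cxcl12 and Cx3cl1, and that of Cxcl9 held none of the 3 motifs.

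In the NF-κB-induced group, Ccl7 rose 1.62-fold while Cxcl1 did not pass the test. Ccl7 (ENSMUSG00000035373; GRCm38 chr11:82045712-82047525, plus strand) attracts monocytes through Ccr2. Its level was 26.0, 28.8 and 23.2 CPM in NC libraries 1 to 3 and 47.9, 41.6 and 37.5 CPM in miR-497 libraries 1 to 3. The lowest miR-497 library lay above the highest NC library. The means were 26.0 ± 2.79 CPM and 42.3 ± 5.21 CPM (SD, n = 3), which gave a log2 fold change of 0.70 (adjusted p = 1.1e-05 by edgeR, SE 0.0951). Ccl2 (ENSMUSG00000035385; GRCm38 chr11:82035571-82037453, plus strand), which lies next to Ccl7 and uses the same receptor, was listed at 0 in all 6 libraries, so the pair cannot be compared.

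Cxcl1 (ENSMUSG00000029380; GRCm38 chr5:90891241-90893115, plus strand) recruits neutrophils through Cxcr2. Its level was 4.34, 5.04 and 4.80 CPM in NC and 3.26, 4.63 and 2.62 CPM in miR-497 libraries 1 to 3. Here miR-497 library 2 lay within the range of NC and the groups overlapped. The means were 4.73 ± 0.353 CPM and 3.51 ± 1.02 CPM (SD, n = 3). The log2 fold change was -0.43 (adjusted p = 0.12 by edgeR, 95% interval -0.90 to 0.04, SE 0.222). Without miR-497 library 2 it was -0.69 with an adjusted p of 0.023, so this library decided the call. The 250 bases before the Cxcl1 start, GRCm38.p6 chr5:90890995-90891244, plus strand, are printed for their κB match. Capitals mark its letters, GGGAATTTCCC, at bases 71 to 61 before the start.
Cxcl1: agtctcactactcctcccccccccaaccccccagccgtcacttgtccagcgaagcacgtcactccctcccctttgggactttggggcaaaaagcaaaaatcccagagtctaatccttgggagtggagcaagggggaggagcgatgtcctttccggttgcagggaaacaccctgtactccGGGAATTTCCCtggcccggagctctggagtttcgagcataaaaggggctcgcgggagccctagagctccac

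The same 11 letters stood at bases 97 to 87 before the start of Cxcl2 and 73 to 63 before that of Cxcl3, the closest relatives of Cxcl1. Cxcl5 (ENSMUSG00000029371; GRCm38 chr5:90759360-90761624, plus strand), another neutrophil attractant acting on Cxcr2, had 5, 1 and 0 reads in NC and 20, 10 and 3 reads in miR-497 libraries 1 to 3. The ranges overlapped, and these counts were too low for the main test. With no filter its log2 fold change was 2.63 with an edgeR adjusted p of 0.028. It also entered the test without miR-497 library 3 (3.08, adjusted p = 0.011) and without NC library 3 (2.13, adjusted p = 0.083), so its call depended on the setting.

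Among the constitutive and membrane-anchored chemokines, Cxcl12 rose 3.12-fold, Cx3cl1 fell 2.29-fold and Cxcl16 did not pass the test. Cxcl12 (ENSMUSG00000061353; GRCm38 chr6:117168535-117181367, plus strand) retains haematopoietic and endothelial progenitor cells through Cxcr4 and is also bound by the scavenging receptor Ackr3. Its level was 66.2, 76.9 and 72.6 CPM in NC libraries 1 to 3 and 229.7, 217 and 227 CPM in miR-497 libraries 1 to 3. The groups were far apart and the spread within each was small. The means were 71.9 ± 5.35 CPM and 224 ± 6.58 CPM (SD, n = 3). The log2 fold change was 1.64 (adjusted p = 2.1e-12 by edgeR, SE 0.0599), and 157 tested genes had a higher one. Cxcl12 is also abundant in fibroblasts, and the sum of fibroblast and mural markers was higher in the miR-497 libraries as given above. These markers did not move together. Col1a1 and Acta2 were called higher (log2 fold changes of 0.84 and 0.92) and Pdgfrb lower (-0.37). Pdgfra, Cspg4 and Rgs5 were not called. The part of that sum in the Cxcl12 result was not tested.

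Cx3cl1 (ENSMUSG00000031778; GRCm38 chr8:94772009-94782427, plus strand), or fractalkine, tethers monocytes and cytotoxic lymphocytes that carry Cx3cr1 while it is anchored in the endothelial membrane. Its level was 12.1, 13.7 and 11.6 CPM in NC and 6.92, 5.35 and 4.13 CPM in miR-497 libraries 1 to 3. The highest miR-497 library was below the lowest NC library. The means were 12.5 ± 1.07 CPM and 5.47 ± 1.40 CPM (SD, n = 3), which gave a log2 fold change of -1.20 (adjusted p = 1.1e-05 by edgeR, SE 0.163). The upstream windows of Cxcl12 (GRCm38.p6 chr6:117168285-117168534, plus strand) and Cx3cl1 (GRCm38.p6 chr8:94771930-94772179, plus strand) are shown because these members moved in opposite directions. Neither held an ISRE, GAS or κB match, so no base is in capitals. Absence of a match says only that these letters are not in the window. The Cx3cl1 window lies before RefSeq's start, which falls after the gene start at base 94772009 given above. Part of that window is thus inside the gene as listed.
Cxcl12: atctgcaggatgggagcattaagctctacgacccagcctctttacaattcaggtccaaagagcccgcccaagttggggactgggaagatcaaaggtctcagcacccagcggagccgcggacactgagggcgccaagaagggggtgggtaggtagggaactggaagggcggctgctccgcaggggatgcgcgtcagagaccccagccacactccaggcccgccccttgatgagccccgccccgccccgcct
Cx3cl1: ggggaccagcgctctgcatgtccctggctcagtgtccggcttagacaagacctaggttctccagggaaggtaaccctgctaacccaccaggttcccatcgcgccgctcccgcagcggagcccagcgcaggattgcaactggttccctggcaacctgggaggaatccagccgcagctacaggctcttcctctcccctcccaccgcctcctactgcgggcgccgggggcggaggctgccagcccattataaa

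Cxcl16 (ENSMUSG00000018920; GRCm38 chr11:70453983-70459984, minus strand), a membrane-anchored ligand of Cxcr6 that also takes up oxidized lipoprotein, was at 2.20, 2.25 and 2.06 CPM in NC and 1.59, 2.36 and 2.43 CPM in miR-497 libraries 1 to 3. The groups overlapped, with means of 2.17 ± 0.0971 CPM and 2.13 ± 0.465 CPM (SD, n = 3). The log2 fold change was -0.02 (adjusted p = 0.95 by edgeR, 95% interval -0.60 to 0.55, SE 0.271). It was 0.14 without miR-497 library 1, so it has no settled sign. Of its exon bases, 18.3% lie under Zmynd15 on the opposite strand, and the strand setting of the counting was not given in the sources used here. Reads of the 2 genes may therefore be mixed.

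**Figure D2:**
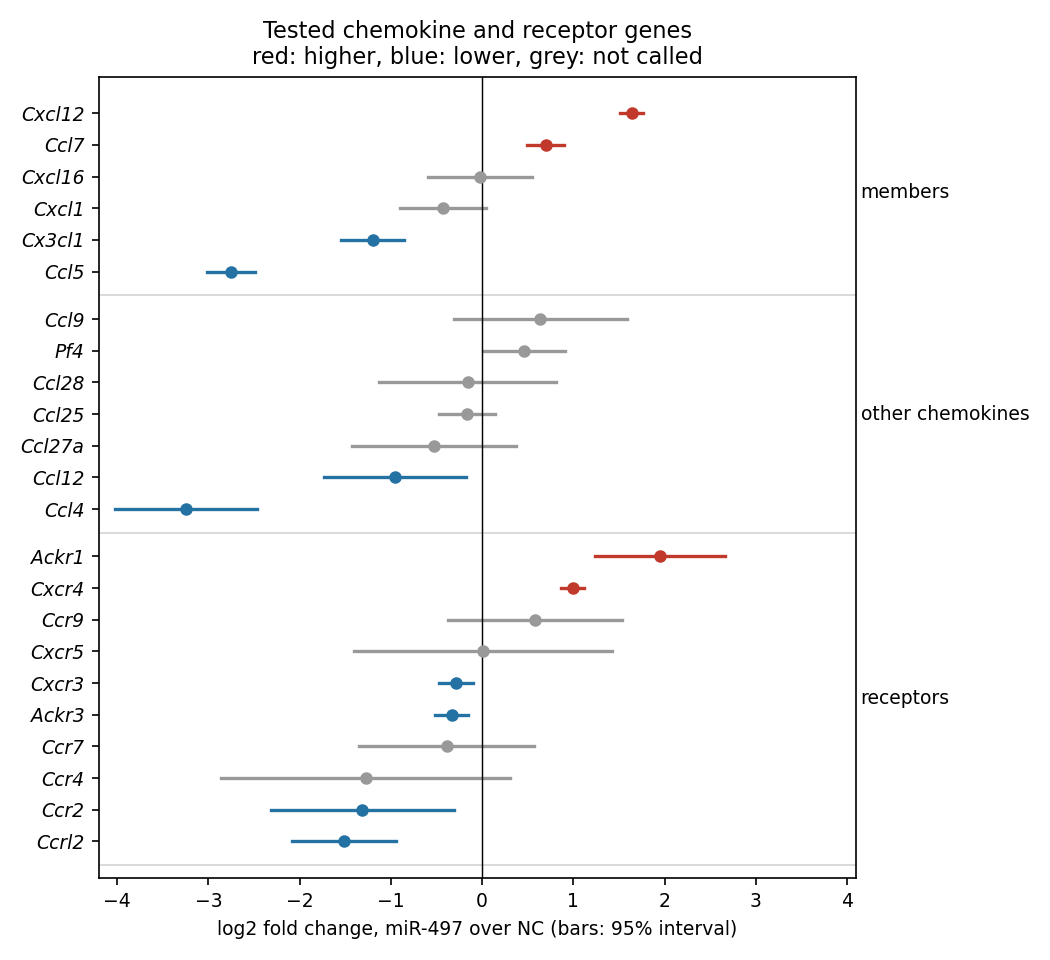
Log2 fold change, miR-497 over NC, of the 6 tested members, 7 other tested chemokines and 10 tested receptors, with bars for the 95% interval from the edgeR fit; red is called higher, blue lower and grey not called. The intervals of Cxcl12 and Ccl7 lie above 0, those of Ccl5 and Cx3cl1 below it, and those of Cxcl1 and Cxcl16 cross it.

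Levels can be compared between genes only per length, as RPKM, which is the CPM value divided by the kilobases of exon. In NC, Ccl7 at 32.5 ± 3.48 RPKM and Ccl5 at 30.6 ± 3.69 RPKM (SD, n = 3) led the list and did not differ beyond their spread. Cxcl12 followed at 8.79 ± 0.654 RPKM, then Cx3cl1 at 3.17 ± 0.272 RPKM and Cxcl1 at 2.52 ± 0.188 RPKM. Cxcl16 was at 0.718 ± 0.0321 RPKM. Cxcl9 and Cxcl5, at 0.0490 ± 0.0284 and 0.0319 ± 0.0431 RPKM, did not differ beyond their spread. With miR-497 the order was Ccl7 at 52.8 ± 6.50, Cxcl12 at 27.4 ± 0.804 and Ccl5 at 4.57 ± 0.653 RPKM. Cxcl1 at 1.87 ± 0.546 and Cx3cl1 at 1.39 ± 0.356 RPKM came next and overlapped within their spread. Cxcl16 at 0.704 ± 0.154 RPKM and Cxcl5 at 0.216 ± 0.192 RPKM were lowest of those with reads. The Cxcl5 level rested on few reads: without miR-497 library 1 it was 0.111 RPKM, and in NC without library 1 it was 0.00735 RPKM. Cxcl12 and Ccl5 thus stood in opposite order in the 2 groups. By the length of the longest coding transcript, in place of all exons, Ccl5 stood at 55.2 RPKM in NC, above Ccl7.

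The sum over 38 chemokine genes, these 10 and 28 others, was 178 ± 11.0 CPM in NC and 309.9 ± 11.3 CPM in miR-497 libraries (SD, n = 3). Cxcl12 gave 40.4% ± 2.74 of these reads in NC and 72.4% ± 1.17 with miR-497. The share of Ccl5 was 16.5% ± 1.10 and 1.41% ± 0.167, and that of Cx3cl1 was 6.99% ± 0.173 and 1.76% ± 0.403. The share of Ccl7 was 14.6% ± 0.708 and 13.6% ± 1.34, a difference within its spread, although its level rose. Shares of reads favour long transcripts and add up to a fixed whole, so a rise in Cxcl12 lowers the others.

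**Figure D3:**
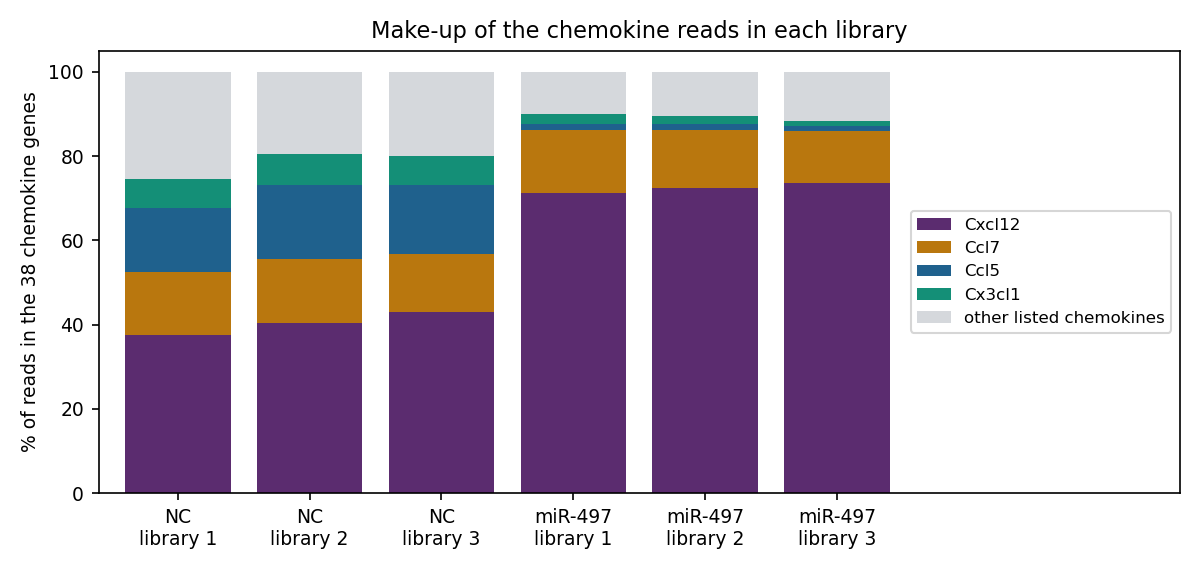
Share of all reads in the 38 chemokine genes that came from Cxcl12, Ccl7, Ccl5, Cx3cl1 and the other listed chemokines, in percent, 1 bar a library. Cxcl12 takes 37.6% to 43.1% in NC and 71.3% to 73.6% in miR-497 libraries.

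Of the 28 other chemokine genes, 7 had enough counts to test, and 11 were listed at 0 in all libraries. Ccl4 and Ccl12 were called lower, and 0 were called higher by edgeR or the DESeq2 Wald test. By edgeR that is 28.6% called, beside 49.8% of all tested genes (26% lower and 23.8% higher). At an unadjusted edgeR p under 0.05, 1 was higher, Pf4 at a log2 fold change of 0.46, named after its value was seen. Ccl8, also named after its values were seen, had too few reads for the main test. It had 7, 3 and 0 reads in NC and 13, 6 and 31 in miR-497 libraries 1 to 3. In the 5 alternatives where it was tested, its log2 fold change was 1.97 to 3.54, and it was called higher in 3. Ccl4 (ENSMUSG00000018930), a monocyte and T cell attractant on the same chromosome as Ccl5, was at 2.41, 2.85 and 2.63 CPM in NC and 0.279, 0.346 and 0.197 CPM in miR-497 libraries 1 to 3. Its groups were far apart, with a log2 fold change of -3.24 (adjusted p = 1.4e-06 by edgeR, SE 0.367). Ccl12 (ENSMUSG00000035352), a Ccr2 ligand near Ccl7, was at 2.02, 2.57 and 1.49 CPM in NC and 0.836, 0.693 and 1.61 CPM with miR-497. Its groups overlapped, and the log2 fold change was -0.96 (adjusted p = 0.039 by edgeR, SE 0.366). The call was lost without NC library 1 (adjusted p = 0.068), NC library 2 (0.18), miR-497 library 1 (0.12) or miR-497 library 2 (0.15). It was also lost with upper-quartile scaling (0.054) and with the replicate block (0.056). The median log2 fold change of the 7 was -0.17.

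**Figure D4:**
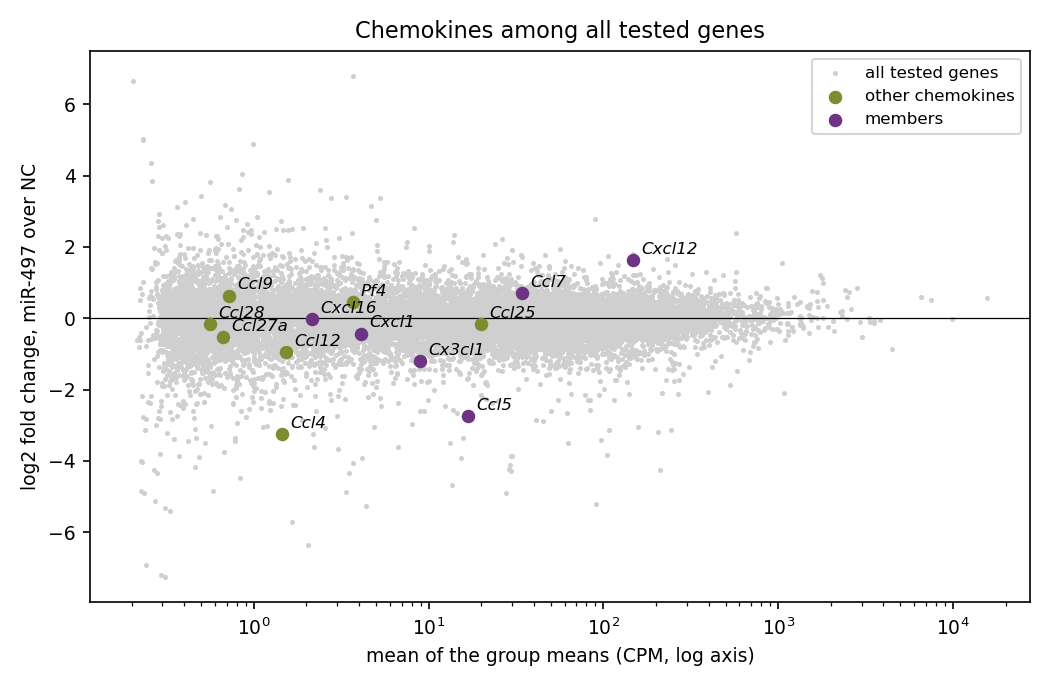
Log2 fold change, miR-497 over NC, against the mean level in CPM on a log axis; each grey point is a tested gene, purple points are the 6 tested members and green points the 7 other tested chemokines. Ccl5 and Ccl4 lie below most of the cloud and Cxcl12 above most of it at its level.

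Of 23 chemokine receptor genes, 10 were tested, 2 were called higher and 4 lower, 60% in all beside 49.8% of all tested genes. Cxcr4, the signalling receptor of Cxcl12, rose with its ligand, from 52.8, 56.4 and 53.4 CPM in NC to 107, 103 and 113 CPM in miR-497 libraries 1 to 3. No library of one group came near the other, and the log2 fold change was 0.99 (adjusted p = 1e-09 by edgeR, SE 0.0607). Ackr3, which scavenges Cxcl12, fell from 28.0 ± 1.18 CPM to 22.2 ± 1.70 CPM (SD, n = 3; log2 fold change -0.34, edgeR adjusted p = 0.0028). Ackr1, an endothelial receptor that binds many inflammatory chemokines, rose from 0.559 ± 0.0626 CPM to 2.18 ± 0.150 CPM (log2 fold change 1.95, edgeR adjusted p = 0.00012), with 25.7% of its exon bases under Cadm3. Ccrl2, which presents chemerin, fell from 3.66 ± 0.282 CPM to 1.27 ± 0.339 CPM (log2 fold change -1.52, edgeR adjusted p = 0.00017). The other lower calls, Ccr2 and Cxcr3, were named after their values were seen. Cxcr3 had a log2 fold change of -0.29 (edgeR adjusted p = 0.013) and lost its call without NC library 2 or miR-497 library 2, with an adjusted p of up to 0.1. Ccr2 had one of -1.31 (edgeR adjusted p = 0.03), lost without NC library 1 (-0.83, adjusted p = 0.21) or miR-497 library 3 (-0.94, adjusted p = 0.11).

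All 16 genes listed for chemokine cleavage and surface binding were tested, of which 2 were called higher and 5 lower, 43.8% in all beside 49.8% of all tested genes. Mmp14, a membrane metalloproteinase whose known substrates include Cxcl12, rose from 26.7 ± 2.41 CPM to 62.8 ± 4.25 CPM (SD, n = 3; log2 fold change 1.23, edgeR adjusted p = 2.4e-09). Adam10 and Adam17, the sheddases of Cx3cl1 and Cxcl16, were not called, with log2 fold changes of -0.09 (95% interval -0.21 to 0.03) and -0.02 (95% interval -0.13 to 0.10). These 2 were named for that role after their values were seen. Of the iRhoms, which carry Adam17 to the cell surface, Rhbdf1 rose by 0.79 and Rhbdf2 fell by 0.30 on the log2 scale (edgeR adjusted p = 1e-07 and 0.0035). Sdc3, a heparan sulfate proteoglycan, fell by 0.74 (edgeR adjusted p = 7.5e-08).

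In the interferon pathway, 13 of 14 listed genes were tested, and 7 were called lower and 4 higher, 84.6% in all beside 49.8% of all tested genes. Transcription factors were among the lower calls. Irf7, the main inducer of type I interferon genes, was at 77.3, 88.4 and 72.6 CPM in NC and 10.1, 12.3 and 10.0 CPM in miR-497 libraries 1 to 3. That is a log2 fold change of -2.87 (adjusted p = 8.3e-13 by edgeR, SE 0.0971). Stat2, a transcription factor of the type I interferon response, fell from 161 ± 11.8 CPM to 40.5 ± 1.45 CPM (log2 fold change -1.99, edgeR adjusted p = 5.1e-13). Jak2, a kinase of the interferon-γ receptor, fell by 0.98 on the log2 scale (edgeR adjusted p = 1.8e-10). The 4 higher calls were the receptor chains Ifnar1, Ifnar2, Ifngr1 and Ifngr2, named after their values were seen, at log2 fold changes of 0.18 to 0.37. The median over the 13 was -0.51, beside -0.02 for all tested genes. Ifnb1, the gene of interferon-β and also named after its values were seen, was too low to test, with 9, 26 and 4 reads in NC and 0, 7 and 0 in miR-497 libraries 1 to 3.

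The NF-κB regulators went in both directions: of 13 tested, 5 were called higher and 5 lower, with a median log2 fold change of -0.17. That is 76.9% called, beside 49.8% of all tested genes. Under other settings, 3 to 6 were called higher and 4 to 5 lower. Nfkb2 (edgeR adjusted p = 0.049) lost its higher call in 7 of 13 settings. Ikbkb (edgeR adjusted p = 0.031) lost its lower call in 8 of 13. Both were named after their values were seen. Ikbkg, the regulatory subunit of the IκB kinase, rose from 43.8 ± 0.757 CPM to 78.7 ± 5.53 CPM (SD, n = 3; log2 fold change 0.85, edgeR adjusted p = 2.2e-08). Nfkbib, an inhibitor that holds NF-κB in the cytoplasm, rose by 0.76 on the log2 scale (edgeR adjusted p = 1.1e-07). Of its exon bases, 16.4% lie under Ccer2 and Sirt2 on the opposite strand. Rela, the main transactivating subunit, rose by 0.42 (edgeR adjusted p = 1.6e-05). Tnfaip3, a feedback inhibitor that is itself an NF-κB target, fell by 0.82 (edgeR adjusted p = 0.00014).

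Of 13 other NF-κB-responsive genes, none of them a chemokine, 10 were tested, 6 were called lower and 0 higher, beside 26% and 23.8% of all tested genes. At an unadjusted p under 0.05, 1 was higher, Ptgs2 at a log2 fold change of 0.16, named after its value was seen. The DESeq2 Wald test also called 0 higher. The number called lower was 4 to 6 under other settings. Il6, named after its value was seen, had an edgeR adjusted p of 0.044 and lost its lower call in 8 of 12 settings. Sele, the endothelial adhesion molecule E-selectin, fell from 191 ± 10.4 CPM to 89.2 ± 3.98 CPM (SD, n = 3; log2 fold change -1.10, edgeR adjusted p = 1.5e-10). Vcam1, which binds leukocyte integrins, fell by 0.45 and Csf1, the macrophage growth factor, by 0.39 on the log2 scale (edgeR adjusted p = 0.0012 and 2e-05). Lif, a cytokine of the interleukin-6 family, fell by 1.47 (edgeR adjusted p = 0.0038). Ccl7, classed with the NF-κB-induced chemokines, rose in the same libraries.

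**Figure D5:**
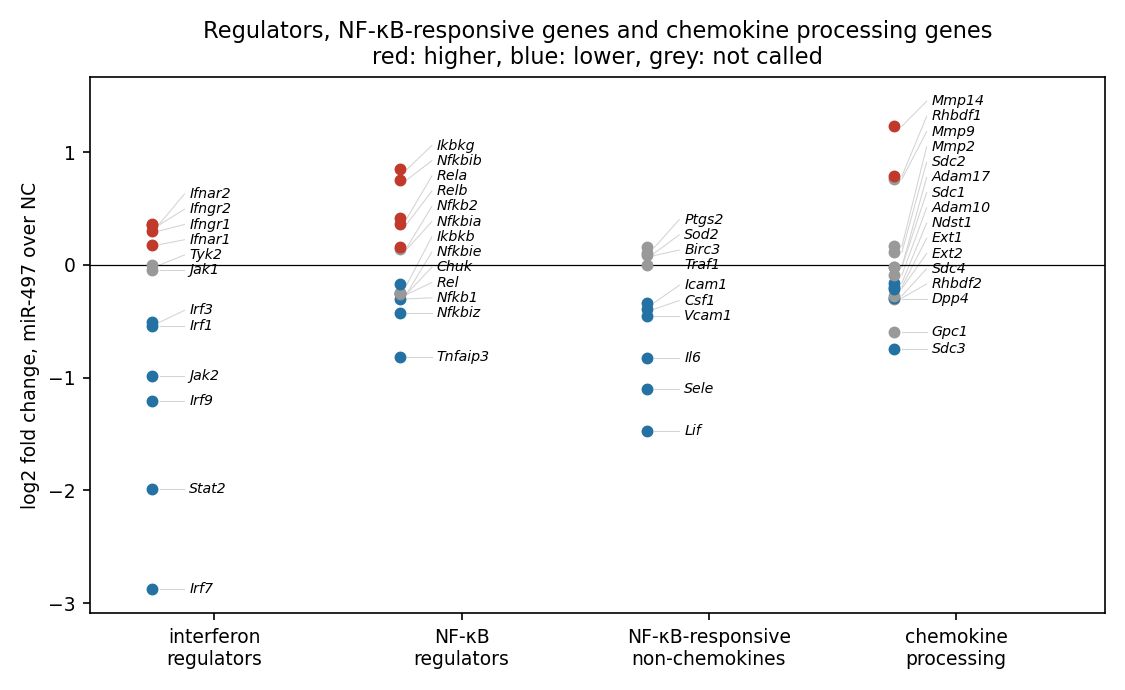
Log2 fold change, miR-497 over NC, of tested genes in 4 lists: interferon regulators (12 of the 13 are drawn), NF-κB regulators, NF-κB-responsive genes that are not chemokines, and chemokine processing genes; red is called higher, blue lower and grey not called. The 2 lowest points are Irf7 and Stat2.

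The genes whose levels over the 6 libraries most resembled those of Ccl5 and Cxcl12 were sought by the distance between log2 CPM profiles, each centred on its NC mean. For Ccl5 they were Gbp2 at a distance of 0.190, Dhx58 at 0.325, Irgm2 at 0.337, Mov10 at 0.384 and Isg20 at 0.415. For Cxcl12 they were Tmem50a at 0.115, Sfxn3 at 0.180, Map6 at 0.200, Tns3 at 0.202 and Nefm at 0.234. With 6 libraries in 2 groups, such distances mostly reflect a like fold change.

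MicroRNAs of this kind pair through bases 2 to 8, the seed, with matching letters in 3′ UTRs. RefSeq's GRCm38.p6 entry for miR-497a-5p, chr11:70234730-70234751, plus strand, is printed with the seed in capitals. The mimic's own sequence was not given in the sources used here.
miR-497a-5p: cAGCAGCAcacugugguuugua

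In the longest 3′ UTR of each gene (GENCODE M21), the site letters TGCTGCT or GCTGCTA occurred in 4 members: Cx3cl1, Cxcl10, Cxcl12 and Cxcl9. Such letters occurred in 28.1% of the 12859 tested genes for which a 3′ UTR was annotated. That set leaves out Cxcl9 and Cxcl10, which were not tested, so the 4 members are not a like count. Among the 6 tested members, the like set, only Cx3cl1 and Cxcl12 held such letters. The windows below show the matching letters in capitals, and they are printed because the members that carry them did not share a direction. The Cx3cl1 site began at base 254 of 1871 in the 3′ UTR, and the Cxcl12 sites at bases 2051 and 4509 of 5188.
Cx3cl1: aaagaatcctcTGCTGCTggctggttagag
Cxcl12 first site: cactgggcaccTGCTGCTgttagggccaat
Cxcl12 second site: tgtttatacacTGCTGCTggctcccgagga
Cxcl9 first site: agtaaacacttcGCTGCTAtctaattggat
Cxcl9 second site: ggtggtttttgTGCTGCTggtgggactccc
Cxcl10: gtggtcacatcaGCTGCTActcctcctgca

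Cxcl12, with 2 sites, rose, and Cx3cl1, with 1 site, fell. Ccl5, which fell the most among the tested members, had neither TGCTGCT nor GCTGCTA, and nor did Ccl7, Cxcl1, Cxcl5, Cxcl16 or Ccl2. The shorter GCTGCT, common to both forms, did occur 1 time in Ccl5, whose 3′ UTR has 199 bases, and 1 time in Cxcl5. In the shortest annotated 3′ UTR, TGCTGCT or GCTGCTA remained only in Cxcl9 and Cxcl10. A match is a description and does not show that the microRNA acts there.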

How the data were processed

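Poly(A)-enriched libraries from ADC106 cells, 3 per group, were grouped by sample title. The deposited table held raw read counts per gene, not normalized by the authors. The submitters' processing notes name GRCm38, STAR 2.5.4b, featureCounts (Subread 1.6.1) and edgeR 3.32.1. Annotation release, strand setting and treatment of multi-mapping reads were not given in the sources used here. The deposited counts were tested with edgeR 4.0.16 in R 4.3.3 (filterByExpr defaults with a minimum count of 10, TMM scaling, quasi-likelihood F-test on group, 2-sided). Benjamini-Hochberg adjustment covered all 14661 tested genes, with a threshold of 0.05. CPM use TMM-scaled library sizes, and RPKM divide them by the union of exons. Symbols (55141 of 55401 identifiers), exons and 3′ UTRs came from GENCODE M21, and promoters and the microRNA from RefSeq. Nothing in the labels says that libraries came from separate cultures, so p-values measure the spread between these libraries, which may be technical. The script was tested on simulated counts.

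Members, lists and tests were chosen with earlier results of these data known. Named genes were all members, called non-member chemokines, and up to 4 genes with the smallest p in each other list; 1 gene so named is not reported here. The nearest-profile rule named Cxcl10 and Ccl2, which were at 0, and Ccl5 and Cxcl12 took their place after values were seen. Alternatives were DESeq2 1.42.0 size factors and Wald test, upper-quartile scaling, limma 3.58.1 voom, other filters, a replicate block and each library left out. Leaving out genes with at least 10% of exon bases under another gene was added after seeing the data.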

Additional observations from a re-analysis of the deposited data

How the results depend on the processing

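Ccl5, Ccl7, Cxcl12 and Cx3cl1 kept direction and call under all 13 alternatives, with log2 fold changes of -2.85 to -2.64, 0.60 to 0.78, 1.58 to 1.70 and -1.39 to -1.03. Cxcl1 gained a call without miR-497 library 2. Cxcl16, never called, changed sign to 0.0237 with upper-quartile scaling, 0.00667 without NC replicate 2 and 0.141 without miR-497 replicate 1, over a range of -0.125 to 0.141 with each library left out. Same-numbered libraries did not deviate together (correlations of -0.119, -0.0351 and -0.133, and 0 of 3 NC libraries closest to their own number). The numbers are thus not taken as pairs, and with the replicate block 2 members were higher and 2 lower, 1 other chemokine was lower, and 3177 and 3563 of all tested genes were higher and lower. Other chemokines called higher numbered 1 with no filter and 0 to 1 with each library left out. Other chemokines called lower numbered 1 with upper-quartile scaling, 0 with a mean count of at least 50, and 1 to 2 with each library left out. Receptors called higher numbered 1 with a mean count of at least 50, and 1 when genes with at least 10% of exon bases under another gene were left out, an alternative chosen after seeing the data. That alternative left 3 NF-κB regulators called higher, and leaving out each library 3 to 5. Processing genes called lower numbered 3 to 6 with each library left out. NF-κB-responsive genes called higher numbered 1 with upper-quartile scaling, 1 with a mean count of at least 50, and 0 to 1 with each library left out. Members with a seed site numbered 2 with the shortest 3′ UTR. By longest coding transcript, levels in NC were 55.2 RPKM for Ccl5, 4.96 for Cxcl1, 12.8 for Cxcl12, 3.76 for Cx3cl1 and 0.804 for Cxcl16. With miR-497 they were 8.25 for Ccl5, 3.68 for Cxcl1 and 39.9 for Cxcl12. Of 225 recomputed counts, 205 stayed within 1.5 times the main count. Scaling moved the median of all genes by at most 0.0466 on the log2 scale. The causes of these changes were not tested. Some alternatives also let fewer genes or libraries enter a test. Cxcl9, Cxcl5 and Ifnb1 are limited by depth. The Cxcl9 bound was 2.84-fold to 5.40-fold with each library left out, an alternative chosen after seeing the data.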
